A study of Mus musculus with 6 samples.

Results

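The miR-10, miR-99/100 and miR-125 family was followed in small RNA from extracellular vesicles of mouse primary hepatocytes, that is, hepatocytes taken from liver and cultured without being made into a line. Its members were chosen by name: 9 mature miRNAs, 7 from the 5p arm and 2 from the 3p arm of their hairpins, out of 1976 miRNAs listed. The study compared 3 PA libraries, from vesicles of cells given palmitic acid at 600 µM, with 3 Control libraries, from vesicles of cells given palmitic acid at 0 µM. All 6 libraries came from wild type C57BL/6J mice, and the labels name the sequenced material as exosome. The sources used here give no age, sex, length of treatment or way of isolating the vesicles. Whether replicates came from separate animals or separate cultures is not stated, and every p-value therefore reflects the spread among these libraries, which may be technical.

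A mature miRNA guides an Argonaute protein to messenger RNAs, mainly by pairing of its seed, bases 2 to 8 from its 5′ end. The miR-10 genes lie in the Hox clusters, whose genes set position along the body axis in the embryo. The miR-125 family holds the mammalian relatives of lin-4, a miRNA that times development in the worm Caenorhabditis elegans, and its genes lie beside miR-99/100 and let-7 genes in conserved clusters. The kinase mTOR is a known target of miR-99/100.

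The mature sequences are shown to set out which members share a seed, with the seed in capitals. They are RefSeq's, from GRCm38.p6, and all 9 members matched by name (mmu marks mouse, and is left out below).
mmu-miR-10a-5p: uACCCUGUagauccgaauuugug
mmu-miR-10b-5p: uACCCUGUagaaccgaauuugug
mmu-miR-99a-5p: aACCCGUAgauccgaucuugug
mmu-miR-99b-5p: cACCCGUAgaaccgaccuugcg
mmu-miR-100-5p: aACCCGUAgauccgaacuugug
mmu-miR-125a-5p: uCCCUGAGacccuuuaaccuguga
mmu-miR-125b-5p: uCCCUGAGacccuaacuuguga
mmu-miR-99b-3p: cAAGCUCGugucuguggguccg
mmu-miR-125a-3p: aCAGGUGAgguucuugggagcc

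The 7 members of the 5p arm thus carry 3 seeds: ACCCUGU in miR-10, ACCCGUA in miR-99/100 and CCCUGAG in miR-125. The miR-10 and miR-99/100 seeds are not the same, although miR-10a-5p and miR-99a-5p share the run GUAGAUCCGA. Each of the 2 members of the 3p arm has a seed of its own. Counted from 1 at the 5′ end, miR-10a-5p and miR-10b-5p differ by U12A, and miR-99a-5p and miR-100-5p by U16A. miR-99b-5p differs from miR-99a-5p by A1C, U11A, U16C and U21C, outside the seed. miR-125a-5p and miR-125b-5p share their first 13 bases. Reads of members this alike may be split between them, and the sources used here do not say how the authors assigned such reads.

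In GRCm38, all hairpins of the family lie on the plus strand. Mir10a (chr11:96317165-96317274) overlaps no other annotated gene and ends 992 bases from Hoxb4, while Mir10b (chr2:74726070-74726137) lies in an intron of Hoxd3 and Hoxd4. Mir99a (chr16:77598936-77599000) is followed after 656 bases by Mirlet7c-1 and after a further 46522 bases by Mir125b-2 (chr16:77646273-77646343), all in introns of the host RNA Mir99ahg, and Mir125b-2 also in an exon of C130023A14Rik. Mir100 (chr9:41531425-41531504) is followed after 5211 bases by Mirlet7a-2 and after a further 45114 bases by Mir125b-1 (chr9:41581926-41582002), in introns of 3110039I08Rik and Gm49317. Mir125b-1 also lies in an exon of Gm28119, and Mir100 overlaps an exon of Gm48742 on the opposite strand. Mir99b (chr17:17830188-17830257), Mirlet7e and Mir125a (chr17:17830812-17830879) lie within Spaca6, with gaps of only 94 and 367 bases. Mir99b lies in an intron there, and Mir125a overlaps an exon. Mature miR-125b-5p can come from either of its 2 loci, and its reads cannot be assigned to one of them. The hairpin of Mir125a is shown because both of its arms are members, here in capitals, 5p arm first.
Mir125a: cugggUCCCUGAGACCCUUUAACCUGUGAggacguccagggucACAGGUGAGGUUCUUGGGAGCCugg

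The libraries differed widely in depth and in what filled them. Reads were recovered from the deposited values, and totals ran from 613486 to 799130 in PA libraries and from 95238 to 657591 in Control libraries. The arms of miR-122, the most abundant hepatocyte miRNA, and of miR-122b together took 11.7% to 15.3% of the reads in PA libraries and 69.2% to 87.7% in Control libraries. Without the miR-122 and miR-122b arms, 534306 to 676810 reads were left in PA libraries and 29340 to 80738 in Control libraries. Reads were found for 484 to 640 miRNAs in PA libraries and for 238 to 243 in Control libraries. Beside miR-122, the hepatocyte markers miR-192-5p, miR-194-5p and miR-148a-3p all had reads in each library. Together these markers made up 20.8% to 35.5% of all reads in PA and 4.74% to 8.29% in Control. Of the reads left without miR-122 they made up 23.6% to 40.8% in PA and 22.7% to 67.5% in Control, which overlapped.

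Levels below are the deposited values, log2(adjusted count + 1). As inferred from the values, each library had been adjusted to a common size, which was not its total of reads. The fitted size of each library over the common size was 0.322, 0.369 and 0.464 in Control and 2.05, 2.86 and 1.69 in PA. Control replicates 1 and 2 were thus close in this size, with totals of 95238 and 657591 reads. The change is the PA mean minus the Control mean, tested with limma on the 181 miRNAs whose adjusted count reached 10 in 3 or more libraries, with Benjamini-Hochberg adjustment over all 181 and a threshold of 0.05. Over all 181 the median change was 1.94 on this scale. In total 76 miRNAs (42%) were called higher in PA and 26 (14.4%) lower. Of the 9 members, 8 passed the filter and were tested: 6 were called lower, none higher, and 2 passed in neither direction. Among the 6 is miR-125a-3p, which passed the filter through the Control libraries, where it was higher, so its call adds nothing to the count. The PA and Control values did not overlap for 6 of the 8, all lower in PA, where 35 of all 181 (19.3%) had that pattern. miR-125a-3p is again among the 6 and adds nothing to that count. The median change of the 8, miR-125a-3p included, was −2.66, against 1.94 for all 181. Others of the 181 likewise met the filter through PA or Control alone, where they were higher. The median and the shares over all 181 therefore depend on the filter. With no filter the median change of 1058 miRNAs was 0.20, with 88 called higher and 60 lower. Of the 9 members, 4 were then called lower. The 8 tested members ranked 13, 16, 17, 20, 23, 29, 40 and 85 from the lowest change. In such bulk libraries, fewer vesicles with a miRNA, fewer copies per vesicle and more of the other miRNAs cannot be told apart.

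**Figure D1:**
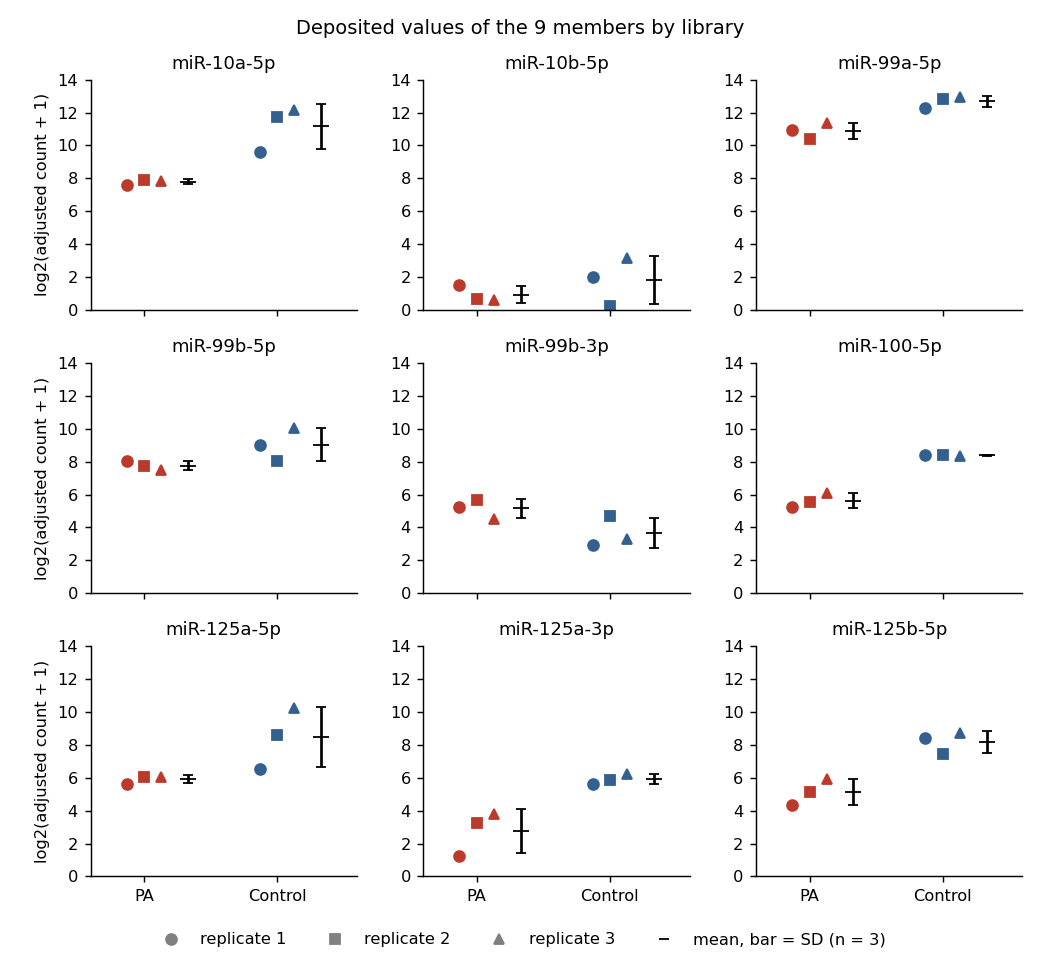
Deposited log2(adjusted count + 1) of the 9 members in each library (points, 3 PA left of 3 Control), with the mean and SD of each group. The PA and Control points do not overlap for miR-10a-5p, miR-99a-5p, miR-100-5p, both arms of miR-125a and miR-125b-5p, all lower in PA, while those of miR-10b-5p and both arms of miR-99b overlap.

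miR-10a-5p, the miR-10 of the Hoxb cluster, had the lowest change of the family. It was at 7.62, 7.93 and 7.87 in PA libraries and at 9.62, 11.72 and 12.18 in Control libraries. The PA libraries lay close together and all below the Control libraries, of which replicate 1 was the lowest. The means were 7.81 ± 0.16 and 11.17 ± 1.36 (SD, n = 3 each), a change of −3.36 (SE 0.64, 95% interval −4.85 to −1.88, limma adjusted p = 0.00262). The reads behind these values were 402, 694 and 392 in PA and 253, 1241 and 2144 in Control. Its adjusted p ran from 3.02e-05 to 0.0374 over 18 alternative settings, and it was called lower in all 18. miR-10b-5p, its counterpart in the Hoxd cluster, which differs from it by a single base, was near the limit of detection, with 4, 2 and 1 reads in PA and 1, 0 and 4 in Control. It did not pass the filter. With no filter its change was −0.88 (SE 0.87, limma adjusted p = 0.469), which at these read numbers does not show that the groups were alike.

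miR-99a-5p was the most abundant member in every library. It was at 10.94, 10.40 and 11.34 in PA and at 12.27, 12.81 and 12.95 in Control. All PA libraries lay below all Control libraries, with a change of −1.79 (SE 0.40, 95% interval −2.72 to −0.85, limma adjusted p = 0.00561), the smallest of the 6 called members. Its reads, in contrast, were more numerous in PA, at 4023, 3873 and 4357, than in Control, at 1596, 2657 and 3665, in libraries that held more reads in all. miR-100-5p, which differs from it by U16A, was at 5.25, 5.52 and 6.11 in PA and at 8.42, 8.38 and 8.37 in Control. The Control values lay close together, with an SD of 0.02. The change was −2.76 (SE 0.50, 95% interval −3.92 to −1.61, limma adjusted p = 0.00204). With the adjusted counts of miR-99a-5p and miR-100-5p summed, the change was −1.82 (limma adjusted p = 0.00511). That sum is mostly miR-99a-5p, with a mean adjusted count of 6688 in Control against 334 for miR-100-5p. It therefore says little of miR-100-5p on its own or of reads split between them.

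miR-99b-5p, which has the same seed, had a lower mean in PA that did not pass the test. It was at 8.05, 7.71 and 7.49 in PA and at 9.03, 8.02 and 10.02 in Control, where replicate 2 lay below the highest PA library. The change was −1.27 (95% interval −2.55 to 0.01, limma adjusted p = 0.0815), and without Control replicate 2 it was −1.77 (adjusted p = 0.0169). On 2 of the 18 alternative settings its sign turned, to 0.0031 with voom on recovered reads and to 0.28 with the trend on GC content removed.

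Both 5p members of miR-125, the lin-4 relatives, were called lower. miR-125b-5p was at 4.35, 5.16 and 5.94 in PA and at 8.45, 7.42 and 8.70 in Control, without overlap. The change was −3.04 (SE 0.67, 95% interval −4.58 to −1.50, limma adjusted p = 0.00502). miR-125a-5p was at 5.64, 6.05 and 6.07 in PA and at 6.56, 8.62 and 10.24 in Control. The PA values lay close together (5.92 ± 0.25), while the Control values were spread widely (8.48 ± 1.84) and replicate 1 was just above the PA libraries. The change was −2.56 (SE 0.88, 95% interval −4.59 to −0.52, limma adjusted p = 0.0374). The call was lost in 9 of 18 alternatives, with adjusted p from 0.00374 to 0.231. Among these were the fits without Control replicate 2 (0.0891), Control replicate 3 (a change of −1.67, 0.0897), PA replicate 1 (0.0889), PA replicate 2 (0.0822) and PA replicate 3 (0.0958).

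The 3p arms of miR-125a and miR-99b had changes of opposite sign, a difference that was not tested. miR-125a-3p, usually the minor product of its hairpin, was at 1.24, 3.26 and 3.80 in PA and at 5.65, 5.84 and 6.24 in Control. Behind these stood 3, 25 and 22 reads in PA and 16, 21 and 35 in Control. The groups did not overlap, and the change was −3.14 (SE 0.92, 95% interval −5.26 to −1.03, limma adjusted p = 0.0181). Adjusted counts were 1.35, 8.57 and 13 in PA and 49.1, 56.3 and 74.7 in Control, so the filter was met through Control. The call rested on few reads and was lost in 6 of 18 alternatives, among them the fits with no filter (adjusted p = 0.0501), without PA replicate 1 (−2.38, adjusted p = 0.131) and without PA replicate 2 (adjusted p = 0.0661). miR-99b-3p was the only tested member with a higher mean in PA, at 5.27, 5.68 and 4.52, against 2.94, 4.68 and 3.31 in Control. PA replicate 3 lay below Control replicate 2, and the change of 1.52 (95% interval −0.46 to 3.49) did not pass (limma adjusted p = 0.155). Without Control replicate 2 it was 2.03 (adjusted p = 0.0374). Adjusted counts of miR-99b-3p were 37.6, 50.4 and 21.9 in PA and 6.7, 24.6 and 8.9 in Control. The filter was thus met through PA, where it was higher, so a higher call of it adds nothing to a count. Behind these values stood 77, 144 and 37 reads in PA and only 2, 9 and 4 in Control.

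Which scale the libraries were put on set how many members were called. Scaled to the reads left without miR-122, the median change of all 181 miRNAs was 1.02, with 57 called higher and 44 (24.3%) lower. On that scale 7 of the 8 members were called lower, from −2.42 for miR-99b-5p to −4.51 for miR-10a-5p, and miR-99b-3p was at 0.50 (limma adjusted p = 0.672). With upper-quartile scaling, where 20.4% of all miRNAs were called lower, and with each library centred on its median miRNA, where 22.1% were, 7 members were called lower as well. miR-125a-3p, which met the filter through Control, is among the 7 on each of these scales and adds nothing to the counts. Scaled to all reads, miR-122 included, the median change was 2.91, with 95 called higher and only 8 (4.42%) lower. There miR-10a-5p, at −2.39 (adjusted p = 0.0167), was the 1 member called lower. miR-99b-3p, at 2.51 (adjusted p = 0.0439), was called higher, below the median of all miRNAs, and the other 6 members were between −2.26 and −0.30 with adjusted p from 0.119 to 0.823. The higher call of miR-99b-3p, which met the filter through PA, adds nothing to the count. miR-122-5p itself was at −3.56 on the deposited scale (adjusted p = 0.0141). Of the other hepatocyte markers, miR-192-5p was called higher there, at 1.94 (adjusted p = 0.0259). miR-148a-3p, at 0.83 (adjusted p = 0.453), and miR-194-5p, at −0.23 (adjusted p = 0.72), passed in neither direction. Relative to the median of all tested miRNAs on the deposited scale, all 8 members lay lower, from −5.30 for miR-10a-5p to −0.42 for miR-99b-3p. By definition as many of the tested miRNAs lie below that median as above it. miR-99b-3p, ranked 85 of 181 and with an SE of 0.86 on its change, was near it.

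**Figure D2:**
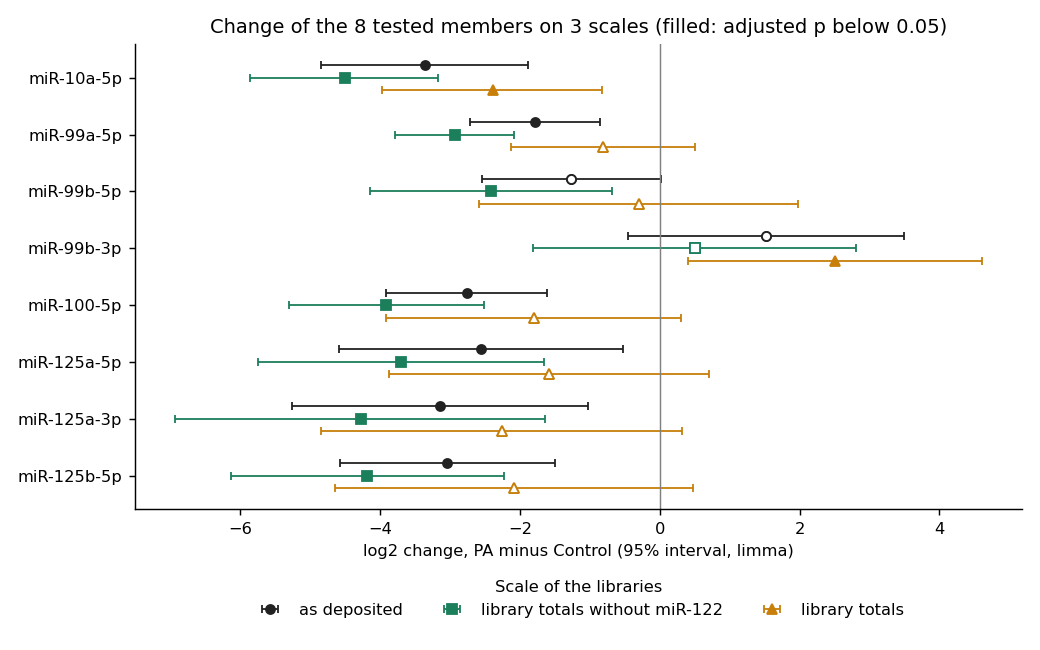
Log2 change, PA minus Control, of the 8 tested members with the 95% interval from limma (horizontal axis), on 3 scales. Filled symbols have an adjusted p below 0.05: 6 members lower as deposited, 7 lower on library totals without miR-122, and on library totals miR-10a-5p lower and miR-99b-3p higher.

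Ranks within a library do not depend on its scale, but they come from longer lists in PA, where more miRNAs had reads. miR-99a-5p ranked 19, 19 and 14 by reads in PA libraries and 5, 6 and 5 in Control libraries. miR-10a-5p ranked 59, 48 and 52 in PA and 23, 10 and 6 in Control. miR-100-5p ranked 119, 110 and 91 in PA and 39, 36 and 37 in Control, and miR-125b-5p 155, 124 and 100 in PA and 38, 49 and 34 in Control. The ranks of the groups did not overlap for these 4 members, nor for miR-125a-5p, miR-125a-3p and miR-99b-5p, which makes 7 of the 8 lower in PA, beside 46 of all 181 (25.4%). Of these, miR-125a-3p met the filter through Control and adds nothing to the count. For miR-99b-3p the ranks overlapped, at 118, 104 and 140 in PA and 171, 112 and 149 in Control. Ranked among the 181 tested miRNAs alone, a list of the same length in every library that was added after the data were seen, 7 of the 8 again lay lower in PA without overlap, beside 60 of all 181 (33.1%) lower and 30.9% higher. On that list miR-125a-3p ranked 181, 165 and 159 in PA and 87, 80 and 66 in Control, and it adds nothing to that count either.

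**Figure D3:**
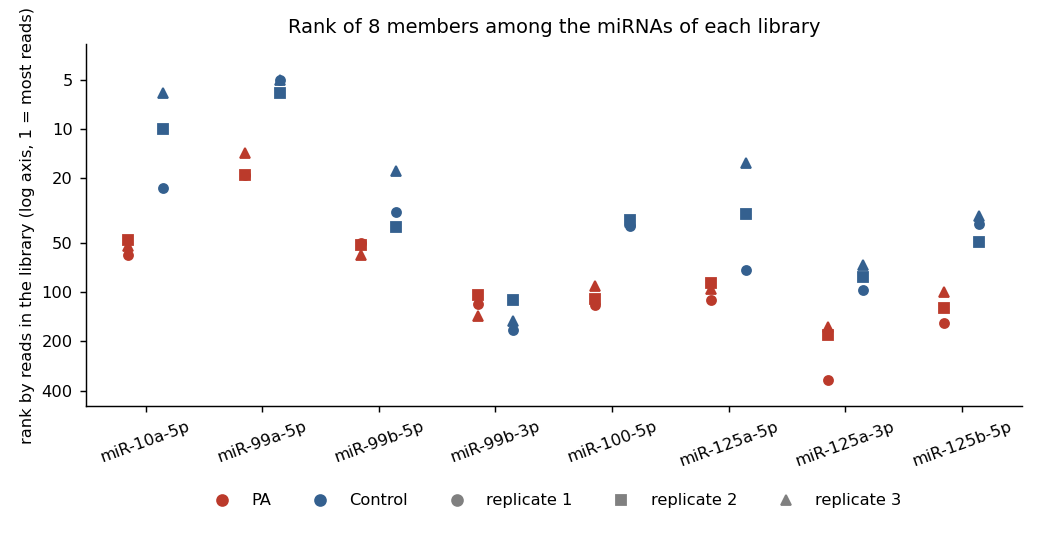
Rank by reads (logarithmic axis, 1 = most reads) of the 8 tested members in each PA and Control library. All PA points lie below all Control points except for miR-99b-3p; miR-99a-5p holds ranks 14 to 19 in PA and 5 to 6 in Control.

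As a share of the reads left without miR-122, the 9 members together made up 0.778%, 0.856% and 1.02% in PA libraries (exact 95% binomial intervals 0.757 to 0.799, 0.834 to 0.878 and 0.991 to 1.05). In Control libraries they made up 7.8%, 5.39% and 13.8% (7.5 to 8.11, 5.24 to 5.55 and 13.5 to 14.1). Intervals and detection limits cover counting error only. The means were 0.884% ± 0.122 in PA and 8.99% ± 4.31 in Control (SD, n = 3 each), 10.2 times as high in Control. Per member, the groups did not overlap for 7 of the 8 tested members, all lower in PA, beside 50 of 177 miRNAs (28.2%) over all with such a pattern. miR-125a-3p is among the 7 and, having met the filter through Control, adds nothing to the count. As a share of all reads the family was at 0.767% ± 0.114 in PA and 1.98% ± 1.16 in Control, and the groups overlapped, with Control replicate 2, in which miR-122 and miR-122b together took 87.7%, at 0.662%.

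The ratio of the groups differed among the 3 seeds and among members of a seed, given here as a description with no test. miR-10 made up 0.079% ± 0.0223 of reads without miR-122 in PA and 2.16% ± 1.7 in Control, a 27.4-fold ratio of Control over PA. Nearly all of these reads were of miR-10a-5p. For miR-99/100 the shares were 0.754% ± 0.12 in PA and 6.04% ± 2.33 in Control, an 8.01-fold ratio. By member it was 7.91 for miR-99a-5p, which held most of these reads, 7.13 for miR-99b-5p and 15.8 for miR-100-5p. The miR-125 5p members made up 0.0345% ± 0.0121 in PA and 0.727% ± 0.624 in Control, a 21.1-fold ratio. For each of the 3 seeds every PA library lay below every Control library on that scale. Without Control replicate 3, which held the highest shares, the ratios were 15.2 for miR-10, 6.59 for miR-99/100 and 10.8 for miR-125. As shares of all reads the ratios were 6.34 for miR-10, 2.09 for miR-99/100 and 5.33 for miR-125, and the groups overlapped for miR-99/100 (0.581% to 0.778% in PA, 0.437% to 1.97% in Control) and miR-125 (0.0175% to 0.0378% in PA, 0.0316% to 0.299% in Control). Reads of miR-10 and miR-99/100 over those of miR-125 were 36, 18.4 and 24.1 in PA and 14.9, 19.8 and 8.54 in Control, which overlapped. Within the family miR-99a-5p took 76.4%, 67.3% and 80.1% of the members' reads in PA and 69.7%, 61.0% and 50.6% in Control, while miR-10a-5p took 7.63%, 12.1% and 7.21% in PA and 11.1%, 28.5% and 29.6% in Control.

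**Figure D4:**
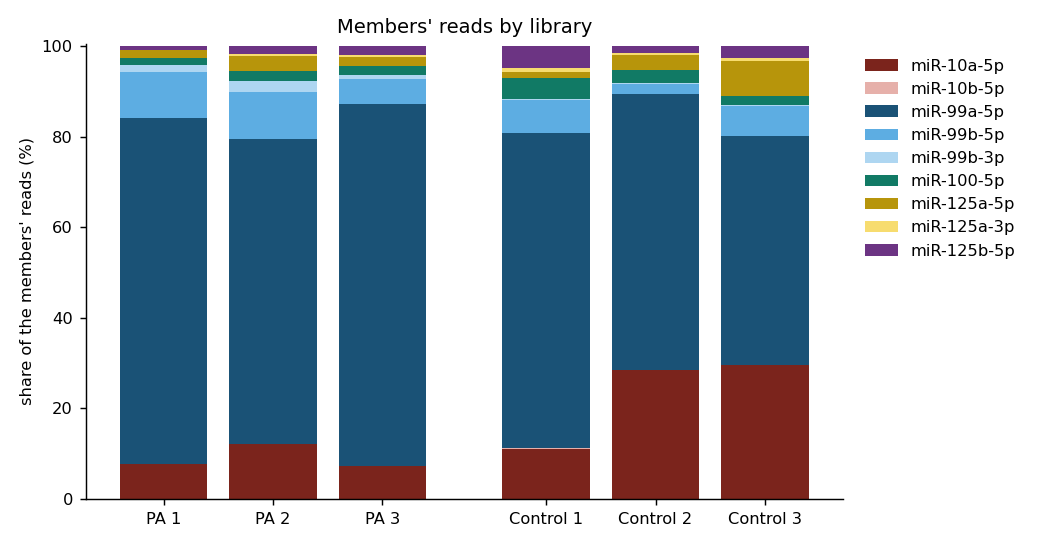
Share of each member in the family's reads (percent, bars add to 100) in the PA and Control libraries. miR-99a-5p fills 67.3% to 80.1% of the PA bars and 50.6% to 69.7% of the Control bars, and miR-10a-5p at most 12.1% in PA and up to 29.6% in Control.

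Markers of other cells were summed in the same way, and their order between the groups depended on the scale. As a share of reads without miR-122, 6 markers of stellate cells and fibroblasts made up 0.062% to 0.0804% in PA and 0.136% to 0.808% in Control. Of the 3 tested, none was called, and miR-214-3p and miR-145a-5p had no Control read. The 3 endothelial markers made up 0.462% to 0.584% in PA and 0.738% to 1.71% in Control, and neither of the 2 tested was called. For 5 immune markers the range was 0.0232% to 0.0449% in PA and 0.0856% to 0.525% in Control, where of 2 tested miR-146a-5p was called lower in PA and miR-155-5p had a change of 2.23 that did not pass (limma adjusted p = 0.176). The 5 epithelial markers ranged from 0.00131% to 0.00399% in PA and from 0.00124% to 0.0989% in Control, which overlapped. The 3 erythroid markers ranged from 0.00281% to 0.0181% in PA and from 0.031% to 1.85% in Control, and the 3 striated muscle markers from 0.00297% to 0.00591% in PA and from 0.078% to 0.767% in Control. The erythroid marker miR-486a-5p (1 of 2 tested) and the muscle marker miR-206-3p were called lower in PA, while miR-144-3p and miR-133a-3p had no read in any library. As shares of all reads, the endothelial markers were higher in PA, at 0.391% to 0.515%, against 0.0906% to 0.356% in Control. The stellate and fibroblast markers then overlapped, at 0.0547% to 0.0681% in PA and 0.0167% to 0.249% in Control, and so did the epithelial, immune and erythroid markers. The striated muscle markers lay lower in PA on that scale too, at 0.00263% to 0.00501%, against 0.00958% to 0.236% in Control. The part of these cells in the family's values was not tested.

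Members that share a cluster, a hairpin or near-identical sequence were compared as log2 ratios within a library, which its scale moves little where reads are many. At low reads the adjustment itself and the 0.5 added to each adjusted count both move them. For example, miR-10b-5p had 0 reads in Control replicate 2 but an adjusted count of 0.174. On recovered reads miR-10a-5p over miR-10b-5p differed by −1.65 in place of −2.38, the arms of Mir99b by −2.76 and those of Mir125a by 0.81. For 11 pairs the PA and Control ratios were set against each other by an exact permutation test, two-sided. The smallest p of 3 against 3 is 0.1, so no pair could pass the threshold. Of these pairs 9 overlapped between the groups. The widest difference was between the arms of Mir99b. miR-99b-5p over miR-99b-3p was at 2.80, 2.04 and 3.0 in PA and at 6.18, 3.36 and 6.79 in Control, a difference of −2.83 (exact p = 0.1, adjusted over 11 pairs 0.55). Its geometric mean ratio was 6.11 in PA and 43.5 in Control, where the 3p arm had 2, 9 and 4 reads. The arms of Mir125a, the hairpin printed above, were at 4.73, 2.86 and 2.31 in PA and at 0.92, 2.79 and 4.01 in Control, which overlapped (difference 0.73, exact p = 0.5, adjusted 0.688). The other pair without overlap was miR-99a-5p over miR-100-5p, at 5.71, 4.90 and 5.24 in PA and 3.86, 4.43 and 4.58 in Control (difference 0.99, exact p = 0.1, adjusted 0.55).

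Along the clusters, miR-99a-5p and its neighbour let-7c-5p stood in nearly the same ratio in both groups. It was 1.42, 0.58 and 1.13 in PA and 1.41, 0.36 and 1.20 in Control, a difference of 0.05 (exact p = 0.9, adjusted 0.9) with a range of −0.26 to 0.29 when each library was left out. With 3 libraries a group, such a p does not show that the ratios were equal. let-7c-5p also has a second locus on chromosome 15. miR-99a-5p over miR-125b-5p, from the same host, was at 6.62, 5.26 and 5.41 in PA and 3.82, 5.39 and 4.26 in Control (difference 1.27, exact p = 0.2, adjusted 0.629). miR-100-5p over miR-125b-5p was at 0.91, 0.36 and 0.17 in PA and −0.04, 0.96 and −0.33 in Control (difference 0.28, exact p = 0.6, adjusted 0.733). In the compact Mir99b cluster the Control libraries disagreed among themselves. miR-99b-5p over miR-125a-5p was at 2.43, 1.66 and 1.42 in PA and at 2.47, −0.61 and −0.23 in Control (difference 1.29, exact p = 0.4, adjusted 0.629). let-7e-5p over miR-125a-5p was at 0.11, 0.17 and 0.31 in PA and at 0.33, −2.64 and −4.12 in Control (difference 2.34, exact p = 0.4, adjusted 0.629). Control replicate 1 lay near the PA ratios in both, and the 2 other Control libraries held more miR-125a-5p for their miR-99b-5p and let-7e-5p. The remaining 3 pairs differed by −2.38 to 0.50 with exact p from 0.3 to 0.9.

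**Figure D5:**
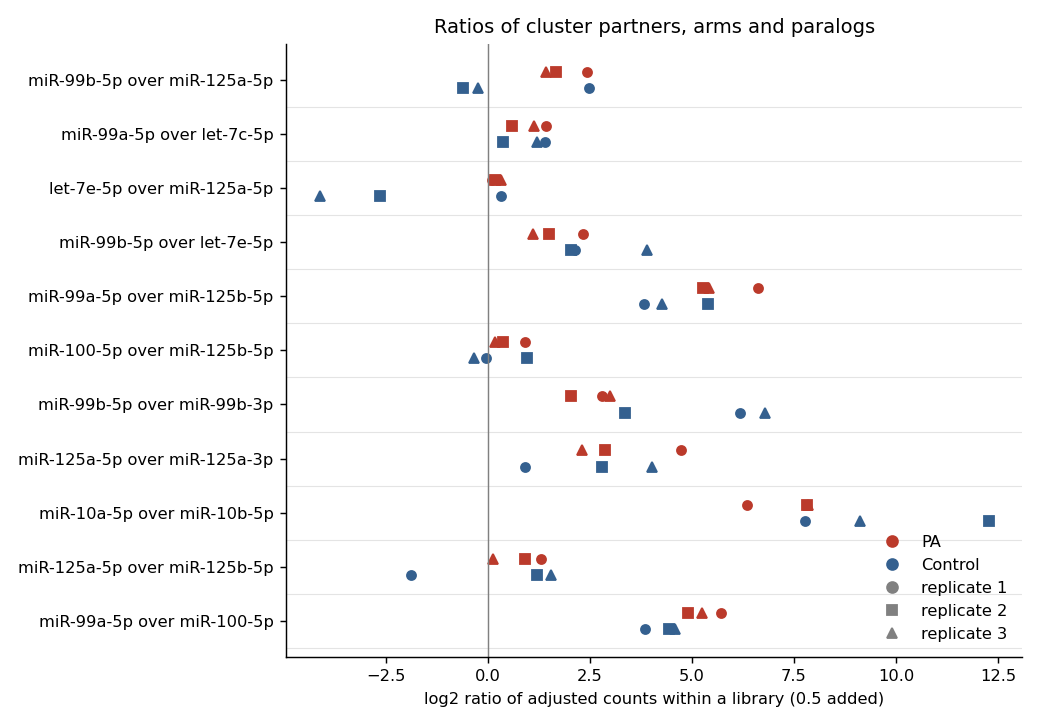
Log2 ratio within each library (horizontal axis, 0.5 added to adjusted counts) of 11 pairs from the same cluster, hairpin or paralog group, PA above Control. Groups are apart for miR-99b-5p over miR-99b-3p and miR-99a-5p over miR-100-5p; miR-99a-5p over let-7c-5p runs from 0.58 to 1.42 in PA and 0.36 to 1.41 in Control.

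Of the let-7 guide strands that share these clusters, let-7c-5p was called lower (change −1.84, SE 0.47, limma adjusted p = 0.00985), and let-7e-5p (−0.22, adjusted p = 0.785) and let-7a-5p (−0.23, adjusted p = 0.665) passed in neither direction. Of the 7 arms of the let-7 partners listed, 6 had reads and these 3 could be tested. Of the other 6 arms of the family's own hairpins 4 had reads, and none passed the filter. miR-125b-2-3p, which comes from Mir125b-2 alone, had 15, 13 and 25 reads in PA and no read in the Control libraries, where a count of 0 allows a share of up to 0.0102%, 0.00372% and 0.0057% of reads without miR-122 in replicates 1, 2 and 3 (3 reads). Its shares in PA were 0.00222%, 0.00193% and 0.00468%, all under the limits of Control replicates 1 and 3. miR-125b-1-3p, from Mir125b-1 alone, had 3, 0 and 0 reads in PA and 23, 0 and 0 in Control. miR-10a-3p had 2, 14 and 11 reads in PA and 32, 0 and 0 in Control, and miR-99a-3p 4, 2 and 0 reads in PA and none in Control. The Control reads of miR-10a-3p and miR-125b-1-3p were thus all in replicate 1, where they made up 0.109% and 0.0784% of reads without miR-122. The 7 other miRNAs of the Hox clusters, arms of miR-196a, miR-196b and miR-615, had no read in any of the 6 libraries.

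A search of the 1677 listed miRNAs with a sequence found 3 further carriers of the CCCUGAG seed and none of the other seeds. They were looked at after their values were seen. miR-351-5p (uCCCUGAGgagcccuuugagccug, chromosome X) had 9, 34 and 7 reads in PA and 0, 5 and 4 in Control, with deposited values of 2.41, 3.70 and 2.35 in PA and 0.38, 3.83 and 3.27 in Control, which overlapped. miR-6394 and miR-6367 had no reads.

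Profiles were compared over the 6 libraries as the root mean square difference of row-centred log2 values among 173 tested miRNAs outside the family. Nearest to the 4 tested 5p members of miR-10 and miR-99/100 were let-7b-5p (0.20), miR-151-3p (0.32) and let-7c-5p (0.50), where the median miRNA was at 2.54. Nearest to the 2 miR-125 5p members were let-7b-5p (0.36), let-7d-3p (0.46) and miR-151-3p (0.51), where the median was 2.78. let-7b-5p was at 8.22, 8.56 and 8.80 in PA and at 10.56, 11.17 and 11.60 in Control, a change of −2.58. These miRNAs were picked for their likeness, and their changes are a description.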

How the data were processed

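Vesicle RNA of 3 PA and 3 Control libraries was taken up in Trizol and sequenced after a NEBNext Multiplex small RNA preparation, per the labels' protocols. Bowtie2 and bedtools stand in the submitters' processing notes beside the builds GRCm38 and mm10, with neither version nor role. Not given in the sources used here is how reads were assigned to miRNAs, and by which annotation. The deposited table of 1976 miRNAs holds log2 values, not raw counts. From the values themselves, each is log2(adjusted count + 1) from a quantile adjustment under a negative binomial (dispersion 1.39 fitted, median absolute difference 0.00022). It brings libraries to 1 common size, which is not a total of reads. Libraries not analysed here may have entered that adjustment.

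The adjustment was inverted to reads: of 4387 values tested where neighbouring read numbers lay at least 0.02 apart, 100.0% came out whole within 0.0015 log2. Of the 1976 miRNAs, 918 were at 0 throughout, and 108 had values but no read in these 6 libraries. Replicates of a group differed by more than sampling noise (chi-square per degree of freedom 79 to 478). The deposited log2 values were fitted with limma 3.58.1 in R 4.3.3 (group term, trended prior variance), two-sided, after being tested on simulated data. Shares, ranks and ratios used Python 3.11.15, scipy 1.17.1 and pandas 2.3.3, and 0.5 was added to adjusted counts in ratios. A fold change on this scale understates the change of low miRNAs.

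The members, lists and tests were chosen with earlier results of these data known. Named miRNAs were all 9 members, the members with reads of 3 lists (other arms, cluster partners, Hox cluster miRNAs), and the 3 nearest profiles of each seed group. Alternatives were the filter, the pseudocount (0.5 and 5), 4 other scalings, limma without a trend, voom on reads, near-identical members summed, the replicate number as a block and each library left out. Removal of a trend on GC content (161 miRNAs, 89.0% with a sequence) was added after the data were seen.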

Additional observations from a re-analysis of the deposited data

How the results depend on the processing

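Of 143 member results under alternative settings, 112 kept their direction and their side of the threshold. Over all miRNAs, 8 were called lower on library totals and 9 with voom on reads, 44 on totals without miR-122, 40 when centred on the median miRNA and 60 of 1058 with no filter, against 26. On library totals and with voom 1 member was called lower, against 6, and 1 (miR-99b-3p) higher. 1 was also called higher with the GC trend removed and without Control replicate 2, again miR-99b-3p. As miR-99b-3p met the filter through PA, its higher calls add nothing to these counts. The split of higher against lower calls was 95 to 8 on library totals, 94 to 9 with voom, 57 to 44 on totals without miR-122, 65 to 40 when centred and 69 to 37 with upper-quartile scaling, against 76 to 26. The change of miR-99b-5p turned to 0.0031 with voom and to 0.28 with the GC trend removed. miR-99a-5p, miR-100-5p and miR-125b-5p lost their calls on library totals and with voom, while miR-10a-5p kept its call in all 18 alternatives. The voom fit used the same totals of all reads, miR-122 included, so these settings share a scale. As shares of all reads, PA minus Control was −1.21 percentage points for all 9 members, −1.08 for miR-10 and miR-99/100 and −0.13 for miR-125. The cause was not tested.

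With each library left out in turn, 63 to 85 miRNAs were called higher and 20 to 32 lower, and 0 to 1 and 4 to 6 members. The changes ran from −4.14 to −2.86 for miR-10a-5p, −2.01 to −1.54 for miR-99a-5p, −1.77 to −0.77 for miR-99b-5p, 1.17 to 2.03 for miR-99b-3p, −3.01 to −2.57 for miR-100-5p, −3.51 to −1.67 for miR-125a-5p, −3.66 to −2.38 for miR-125a-3p and −3.44 to −2.64 for miR-125b-5p. Where an arm then held 1 replicate fewer, the spread was pooled over both groups. The ratio of miR-99a-5p over let-7c-5p turned to −0.26 without Control replicate 2 and −0.14 without PA replicate 1 (highest 0.29). Without Control replicate 1, miR-125a-5p over miR-125a-3p turned to −0.10 (highest 1.44), and miR-125a-5p over miR-125b-5p to −0.59 (highest 1.13). Shares of all 9 members differed by −9.9 to −5.71 percentage points, of miR-10 and miR-99/100 by −8.92 to −5.34 and of miR-125 by −0.927 to −0.338.

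Deviations of same-numbered PA and Control libraries had correlations of 0.21, 0.15 and 0.04. Those of libraries with other numbers ran from −0.18 to 0.06. For each PA library, the Control library of the same number had the highest correlation. Whether the numbers mark pairs was not tested, and the main fit did not take them as pairs. With the replicate block 83 miRNAs were called higher and 28 lower, and 6 members lower. Depth limits miR-10b-5p and the 3p arms most, since 3 reads correspond to 0.00372% to 0.0102% of Control reads without miR-122.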
